A study of Homo sapiens with 4 samples.

Results

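The genes described here are 45 genes of glycolysis and of the hypoxia response driven by hypoxia-inducible factor (HIF), taken from a list of symbols and matched to the array's probe sets. A gene was counted as measured where a probe set carried its symbol alone, and the brightest such probe set, by mean log2 intensity over the 4 arrays, stood for the gene. In this way 40 of the 45 genes were measured, of 18417 genes on the array in all, and all 40 passed the filter on dim genes, which left 12892 genes tested. PGAM1, a mutase of lower glycolysis, and EGLN2, an oxygen-sensing hydroxylase, lay only on probe sets shared with other symbols. The lactate transporters SLC16A1 and SLC16A3 and the carbonic anhydrase CA9 were not analysed here.

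The cells were NOMO-1, an established leukaemia line derived from human monocytic blasts. They were infected with lentivirus at a multiplicity of infection of 1, and total RNA was harvested 48 h after the infected cells were selected. The knock-down group held 1 array for the hairpin ZFX-SH3 and 1 for the hairpin ZFX-SH1, both against ZFX, a zinc finger transcription factor. The control group, labelled wild type for ZFX, held 1 array for a scrambled hairpin (SCR) and 1 for a GFP virus (LEN-GFP), for which the labels name no hairpin. Every construct was measured on 1 array. Separate cultures are not described in the labels, so a p-value measures only the spread between these arrays, which may be technical.

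Glycolysis turns glucose into pyruvate and lactate in the cytosol, with transporters at its entry and exit and regulatory steps at hexokinase and phosphofructokinase. HIF is a dimer of an oxygen-labile alpha subunit, HIF1A or EPAS1, and the stable partner ARNT. In oxygen, the EGLN hydroxylases mark the alpha subunit for the VHL ubiquitin ligase, and HIF1AN blocks its coactivator binding. When oxygen is low, HIF binds short ACGTG or GCGTG elements and raises glycolytic enzymes, angiogenic factors and feedback genes such as EGLN3. Myeloid cells are known to use the same factor in inflammation, and HIF protein is controlled largely after transcription, which an RNA array does not measure.

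ZFX itself had lower values on both hairpin arrays, at a log2 intensity of 10.12 on ZFX-SH3 and 10.13 on ZFX-SH1, against 10.66 on SCR and 10.65 on LEN-GFP. It passed the test on ZFX-SH3 (-0.54, SE 0.12, adjusted p = 0.0185 in limma) and did not on ZFX-SH1 (-0.52, adjusted p = 0.121) or with both hairpins set against both controls (-0.53, adjusted p = 0.797). The hairpins reached nearly the same ZFX level, and the difference between them was -0.02. The SE of ZFX was 0.12 on both, so the split of its calls arose in the adjustment over all genes and not in the ZFX values. The arrays were otherwise alike in median intensity, which was 186.0 on ZFX-SH3 and 189.0 on ZFX-SH1, against 189.8 on SCR and 184.8 on LEN-GFP. ZFX-SH3 stood apart from the controls more than ZFX-SH1 did. In limma with Benjamini-Hochberg adjustment, and with the control pair alone giving the spread, 6.33% of all genes tested were called higher and 7.0% lower on ZFX-SH3, while 0.403% were called in either direction on ZFX-SH1. Of 12 myeloid and monocytic markers 10 were measured. Their summed intensity was 50153 on ZFX-SH3 and 53369 on ZFX-SH1, against 52978 on SCR and 54305 on LEN-GFP. The brightest genes weigh most in this sum. By gene, 7 of the 10 markers lay above the mean of the controls on ZFX-SH3 and 3 below, with a median log2 difference of 0.16. The dimmest of these markers was CD14, with log2 intensities between 7.27 and 7.62, beside a dim limit of 6.70. The lysozyme gene LYZ lay between 14.20 and 14.37. Of the T cell markers 4 of 5 were under the dim limit. So were 1 of 4 measured B cell, 2 of 4 erythroid, 2 of 5 epithelial and 2 of 5 fibroblast markers. The limit thus did not set the myeloid markers apart from these lists, and the epithelial marker KRT18 lay between 9.95 and 10.20. On ZFX-SH3 the myeloperoxidase gene MPO fell by 1.02 on the log2 scale and the integrin gene ITGAX differed by 0.65, both past the adjusted threshold, beside the changes given below, and the part of these myeloid markers in them was not tested. On ZFX-SH1 the receptor gene CSF1R differed by 0.96 (adjusted p = 0.0355). In bulk RNA, fewer cells of a type and less RNA per cell cannot be told apart.

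The promoters of 6 members that differed most on ZFX-SH3 are shown first, because HIF acts through short elements in such regions. They are the members with the largest upward difference whose promoter was in the RefSeq table of build GRCh38.p14, each given as the 250 bases before its start site, 5′ to 3′ on the gene's strand. Capitals mark ACGTG and GCGTG on either strand, so that the reverse complements CACGT and CACGC are capitals too, and CACGTG holds ACGTG on both strands.
EGLN3, chr14:33951075-33951324, minus strand: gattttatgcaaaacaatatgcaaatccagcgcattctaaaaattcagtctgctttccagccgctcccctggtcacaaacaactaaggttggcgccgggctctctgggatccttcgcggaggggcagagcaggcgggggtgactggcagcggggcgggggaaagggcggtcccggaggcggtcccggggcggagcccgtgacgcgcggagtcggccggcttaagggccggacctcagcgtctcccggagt
BHLHE40, chr3:4979187-4979436, plus strand: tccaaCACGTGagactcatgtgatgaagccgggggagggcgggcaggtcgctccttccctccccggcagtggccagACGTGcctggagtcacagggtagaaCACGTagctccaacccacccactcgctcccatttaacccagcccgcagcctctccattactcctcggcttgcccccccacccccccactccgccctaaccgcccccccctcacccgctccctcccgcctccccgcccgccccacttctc
PFKFB4, chr3:48556804-48557053, minus strand: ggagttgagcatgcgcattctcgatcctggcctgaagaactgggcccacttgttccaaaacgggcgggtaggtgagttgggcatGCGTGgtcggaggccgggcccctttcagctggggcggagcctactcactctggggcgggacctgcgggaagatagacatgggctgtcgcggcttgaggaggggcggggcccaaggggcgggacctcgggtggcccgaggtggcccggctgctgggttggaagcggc
ENO2, chr12:6914330-6914579, plus strand: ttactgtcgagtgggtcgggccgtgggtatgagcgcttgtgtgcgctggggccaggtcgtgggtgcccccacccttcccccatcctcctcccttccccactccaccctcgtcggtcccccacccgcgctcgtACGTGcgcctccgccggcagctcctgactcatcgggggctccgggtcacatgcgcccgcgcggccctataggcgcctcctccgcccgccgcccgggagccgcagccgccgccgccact
ANKRD37, chr4:185396591-185396840, plus strand: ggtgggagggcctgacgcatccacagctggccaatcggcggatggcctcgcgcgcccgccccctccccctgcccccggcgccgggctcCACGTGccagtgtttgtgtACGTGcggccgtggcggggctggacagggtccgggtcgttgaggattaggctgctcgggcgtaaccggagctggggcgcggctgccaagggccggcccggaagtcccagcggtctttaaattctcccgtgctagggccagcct
PDK1, chr2:172555840-172556089, plus strand: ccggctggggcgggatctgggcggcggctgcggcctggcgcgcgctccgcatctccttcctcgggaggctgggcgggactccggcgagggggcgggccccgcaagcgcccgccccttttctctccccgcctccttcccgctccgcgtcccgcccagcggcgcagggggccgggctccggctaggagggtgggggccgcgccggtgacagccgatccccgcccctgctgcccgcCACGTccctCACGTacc
BHLHE40, a transcriptional repressor, had 4 matches to ACGTG, of which a pair overlapped in a CACGTG. ANKRD37, an ankyrin repeat gene induced by HIF, had 3, again with an overlapping pair. PDK1, which shuts pyruvate out of the mitochondrial cycle, had 2 matches close to the start site in the window shown, the one with the most matches of its 2 windows. ENO2 had 1 ACGTG and PFKFB4 had 1 GCGTG. The EGLN3 window held neither motif, which says only that these letters are not in this stretch.

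**Figure D1:**
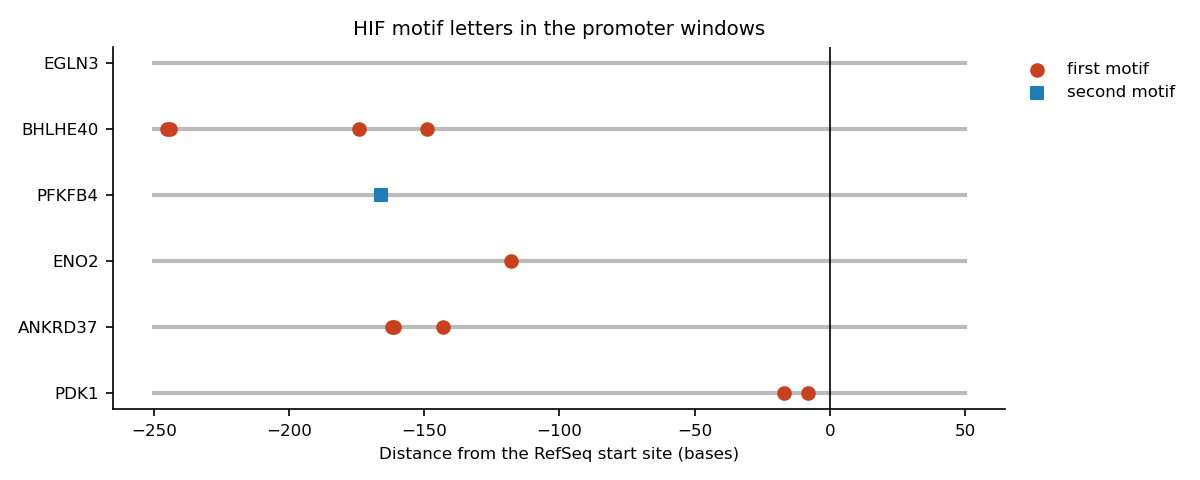
Positions of the motif letters in the promoter windows of 6 members, as the distance of each match's first base from the RefSeq start site in bases, with ACGTG as circles (first motif) and GCGTG as squares (second motif), both strands together. Matches of BHLHE40 and ANKRD37 have first bases from -245 to -143, those of PDK1 are at -17 and -8, and the EGLN3 line is empty.

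Across the measured members, 34 had at least 1 promoter window of 300 bases (250 before and 50 after the start site) in the table, and 55.9% of them held ACGTG and 58.8% GCGTG in any window. Among all genes tested with a window, 31.5% held ACGTG and 56.6% GCGTG. Over all 27305 genes with a RefSeq window the shares were 24.9% and 40.6%. A gene can have several windows, and the members had 58 for 34 genes, against 14626 for the 10210 genes tested. Counted per window, ACGTG stood in 39.7% of the members' windows, against 24.9% for the genes tested. GCGTG stood in 41.4%, against 47.4%, so that its order turned with the way of counting. Both motifs contain CG, and the members' windows were richer in G and C, with a median of 68.2% against 64.7% for the genes tested. ACGTG stood in the windows of 10 of the 15 members called higher on ZFX-SH3 and 9 of the 19 not called. GCGTG had the opposite order, with 8 of the 15 called and 12 of the 19 not called. These are matches of letters in the reference genome and were not read from the cells.

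On the ZFX-SH3 array some of the genes of glucose uptake, of glycolysis and its regulation and of the wider HIF response rose, and on ZFX-SH1 none was called. Of the 40 members, 19 were called higher on ZFX-SH3 and 0 lower, where 6.33% and 7.0% of all genes were. Their differences ran from 0.41 to 1.70 on the log2 scale, and each of these members lay above SCR and above LEN-GFP separately. Their controls were at most 0.47 apart, so this follows from the size of the differences and is no added support. In all, 37 of 40 members lay above the mean of the controls on ZFX-SH3 (49.7% of all genes) and the median difference was 0.39, against -0.0015 over all genes tested. ZFX-SH3 was the highest of the 4 arrays for 35 of 40 members, where it was for 32.8% of all genes, and 15 members exceeded the controls by more than 0.5, where 5.52% of all genes did. On ZFX-SH1, 20 of 40 members lay above the controls and 20 below (49.8% of all genes above), with a median of 0.01. None of the 40 was called on ZFX-SH1, with 9 at an unadjusted p under 0.05 (10.0% of all genes), 3 of them higher and 6 lower. In these fits the lone hairpin array is assumed to vary like the control pair, so a call compares arrays, not cultures.

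**Figure D2:**
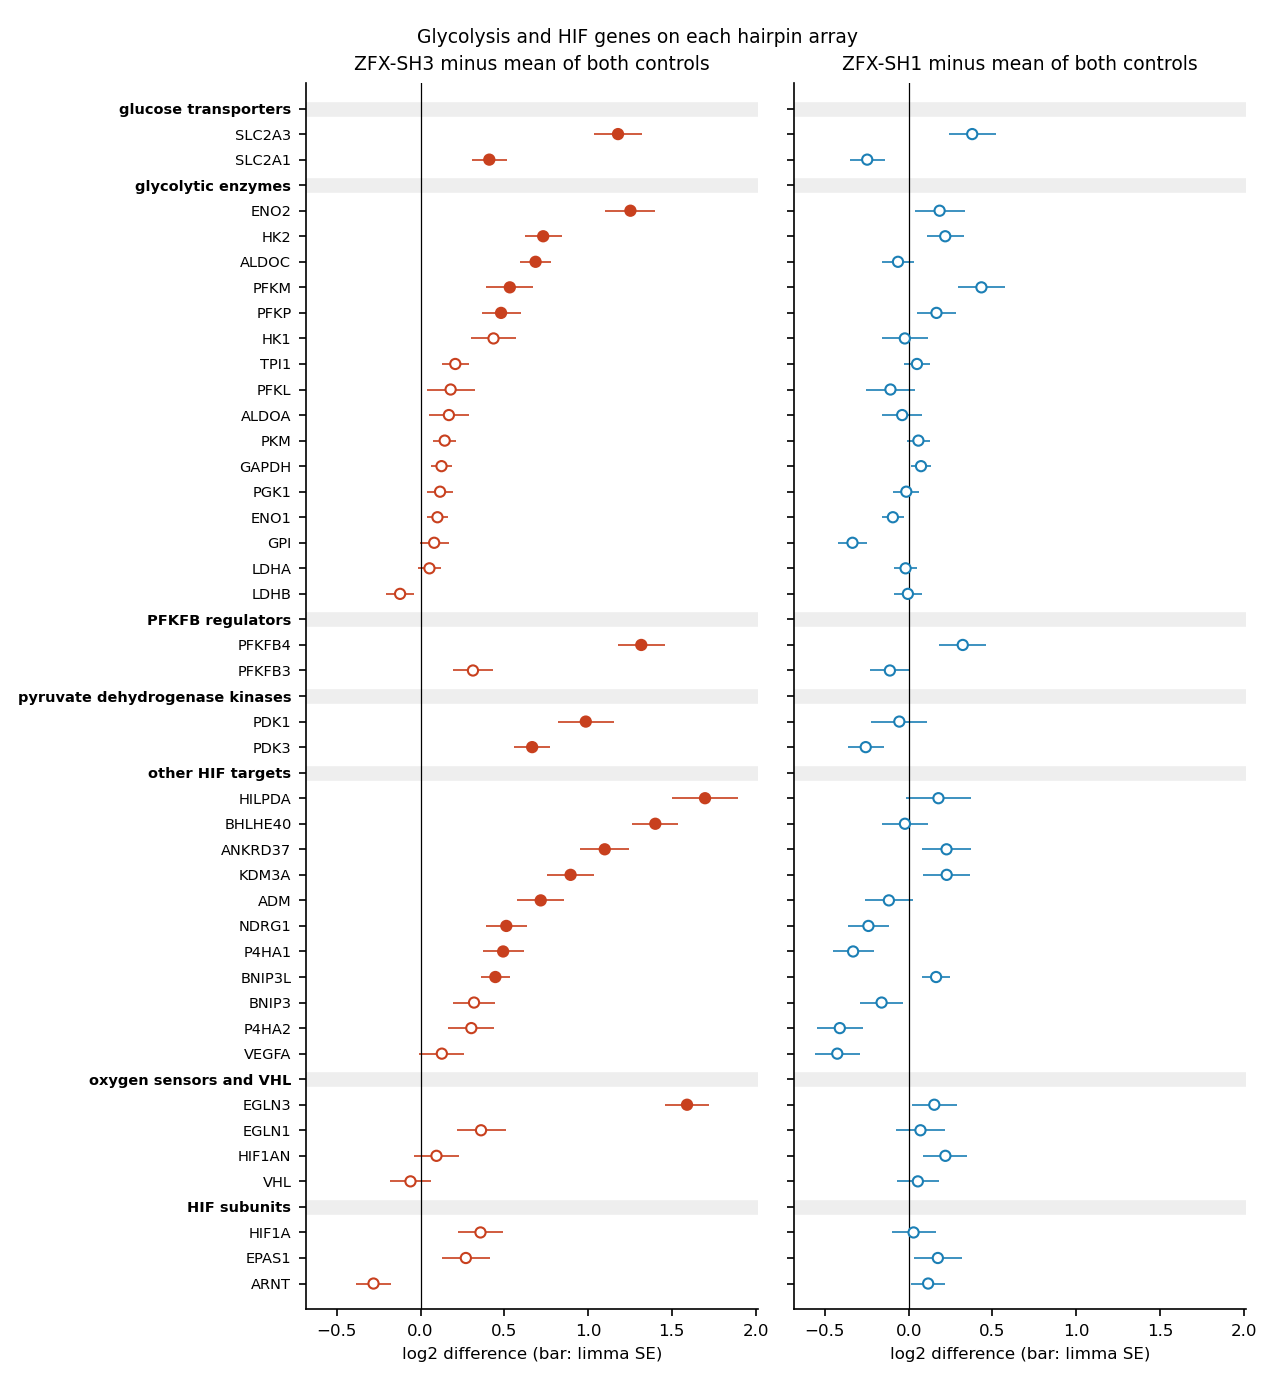
Log2 difference of each measured member from the mean of both controls, for ZFX-SH3 on the left and ZFX-SH1 on the right, grouped by role, with limma standard errors as bars and filled points for an adjusted p under 0.05. On ZFX-SH3, 19 points are filled, up to 1.70 for HILPDA, and on ZFX-SH1 none is.

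**Figure D3:**
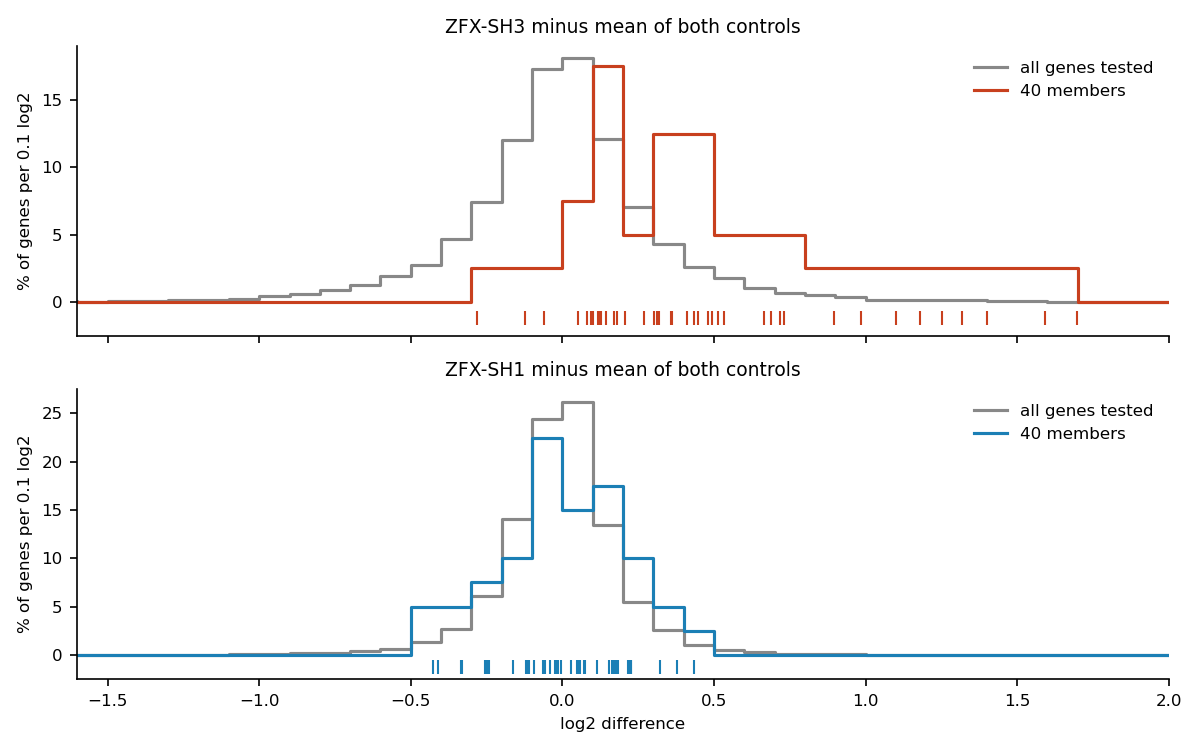
Share of genes, in percent per 0.1 log2, against the log2 difference from the mean of both controls, for all 12892 genes tested (grey) and the 40 members (coloured, with a tick for each), over the central part of the range, on ZFX-SH3 above and ZFX-SH1 below. The members are shifted to a median of 0.39 on ZFX-SH3 and stay around 0.01 on ZFX-SH1.

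The difference between the hairpins was tested directly, as ZFX-SH3 minus ZFX-SH1 in the same limma fit. It was called for 18 of 40 members, all higher on ZFX-SH3, where 4.01% of all genes tested were called higher and 4.48% lower. The median of this difference over the members was 0.44, against 0.0004 over all genes. Of the 19 members called against the controls, 16 were also called higher on ZFX-SH3 than on ZFX-SH1. PFKM, PFKP and BNIP3L were higher as well, by 0.10, 0.32 and 0.28, without a call. Both comparisons use the same ZFX-SH3 array, so their calls are not independent. P4HA2 and GPI were called between the hairpins alone, each with a negative difference on ZFX-SH1. ZFX mRNA, as given above, did not separate these 2 arrays.

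When both hairpins were set against both controls, limma called 0 of the 40 members (0.0% of all genes), and the lowest adjusted p among them was 0.797. SLC2A3, PFKM and BNIP3L, all higher, were the 3 members whose unadjusted p was under 0.05, which held for 6.04% of all genes in either direction. Ordinary statistics without moderation also called 0 members and had 1 whose unadjusted p was under 0.05. For 15 members the 2 hairpin arrays were each above the 2 controls (18.2% of all genes), and for 0 they were each below (19.0%). Leaving out ZFX-SH1 turns this comparison into ZFX-SH3 against the same controls, which repeats the comparison given above. It therefore adds no separate support to the calls on ZFX-SH3.

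Glucose enters through facilitative transporters of the SLC2A family, and both measured members rose on ZFX-SH3. SLC2A3, the high-affinity transporter GLUT3, had a log2 intensity of 11.99 on ZFX-SH3 and 11.19 on ZFX-SH1, against 10.97 on SCR and 10.64 on LEN-GFP. Both hairpin arrays were above both controls, and the difference was 1.18 on ZFX-SH3 (SE 0.14, adjusted p = 0.00129) and 0.38 on ZFX-SH1 (SE 0.14, adjusted p = 0.378). The controls themselves were 0.33 apart, with SCR the higher. SLC2A14, a near-identical copy, lay at 8.66 and 8.90, against 8.36 and 8.42, and a probe set may take up transcripts of both genes. SLC2A1, the widespread transporter GLUT1, was at 11.67 on ZFX-SH3 and 11.01 on ZFX-SH1, against 11.22 on SCR and 11.30 on LEN-GFP. Here ZFX-SH3 was above and ZFX-SH1 below both controls, with differences of 0.41 (adjusted p = 0.0322) and -0.25 (adjusted p = 0.465).

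Of 16 measured enzymes of the glycolytic chain, 5 were called higher on ZFX-SH3 and 0 lower, where 6.33% and 7.0% of all genes were. Called or not, 15 lay above the mean of the controls there and 1 below. The median over the enzymes was 0.17 on ZFX-SH3 and -0.01 on ZFX-SH1. ENO2, the enolase best known from neurons, had 9.68 on ZFX-SH3 and 8.61 on ZFX-SH1, against 8.34 on SCR and 8.51 on LEN-GFP. It was 2.38-fold the control level on ZFX-SH3 (log2 1.25, SE 0.15, adjusted p = 0.00129), with ZFX-SH1 only slightly over the controls. HK2, the inducible hexokinase that traps glucose in the cell, had 11.50 and 10.99, against 10.72 on SCR and 10.83 on LEN-GFP. Both hairpins exceeded both controls, by 0.73 on ZFX-SH3 (SE 0.11, adjusted p = 0.00397) and by 0.22 on ZFX-SH1, which was not called. ALDOC, an aldolase, stood at 12.60 on ZFX-SH3 and 11.85 on ZFX-SH1, against 11.86 on SCR and 11.97 on LEN-GFP, so that ZFX-SH3 lay above both controls (0.69, SE 0.09, adjusted p = 0.00250) and ZFX-SH1 just below them.

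Phosphofructokinase, the committed step, has liver, muscle and platelet subunits. PFKM, the muscle subunit, had 9.16 on ZFX-SH3 and 9.07 on ZFX-SH1, against 8.63 on both SCR and LEN-GFP. It was the member for which the hairpins were most alike among the 19 called, with 0.53 on ZFX-SH3 (adjusted p = 0.0385) and 0.43 on ZFX-SH1 (adjusted p = 0.298). PFKP, the platelet subunit, had 10.79 and 10.48, against 10.31 and 10.32, and was also above both controls on both hairpins, with 0.48 on ZFX-SH3 (adjusted p = 0.0272). PFKL, the liver subunit, differed by 0.18 on ZFX-SH3 and -0.11 on ZFX-SH1, both smaller than the 0.31 by which the controls were apart.

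The other 11 enzymes of the chain were called on neither hairpin. They were HK1, GPI, PFKL, ALDOA, TPI1, GAPDH, PGK1, ENO1, PKM, LDHA and LDHB, and they differed by between -0.12 and 0.44 on ZFX-SH3 and between -0.34 and 0.07 on ZFX-SH1. LDHA, the lactate dehydrogenase subunit that is a textbook HIF target, had 13.40 and 13.33, against 13.36 and 13.33, a difference of 0.05 (SE 0.07). LDHB had the only negative difference of the chain on ZFX-SH3, -0.12. GPI, the isomerase, was at 12.94 on ZFX-SH3 and 12.52 on ZFX-SH1, against 12.79 and 12.92, so its call between the hairpins came with a low ZFX-SH1 value. HK1, the constitutive hexokinase, differed by 0.44 on ZFX-SH3 and missed the threshold (adjusted p = 0.0702). Several of these genes, GAPDH among them, have processed pseudogenes, so their values are uncertain to that extent. All but HK1 and PFKL were bright, with control means between 11.24 and 14.04. The part of brightness in their small differences was not tested.

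**Figure D4:**
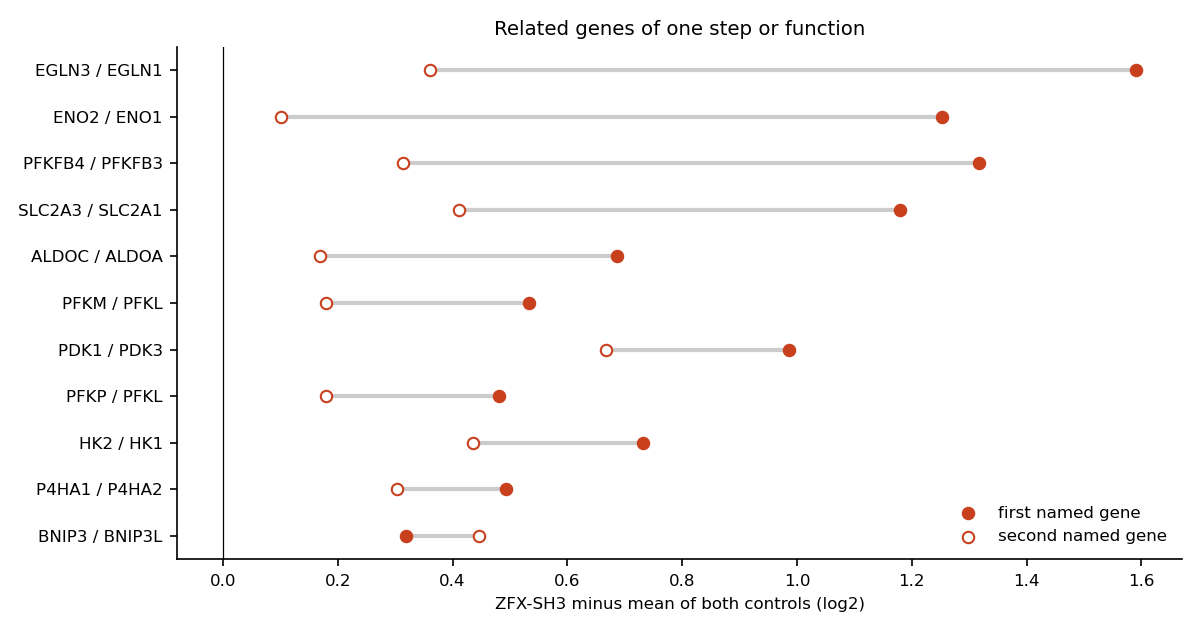
Log2 difference of ZFX-SH3 from the mean of both controls for 11 pairs of members that share a step or a function, with the first-named gene filled and the second open. The widest pairs are EGLN3 and EGLN1 (1.59 and 0.36), ENO2 and ENO1 (1.25 and 0.10) and PFKFB4 and PFKFB3 (1.32 and 0.31).

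Related genes differed in size on ZFX-SH3, and the pairs were drawn up after their values were seen. ENO2 differed by 1.25 and ENO1 by 0.10. ALDOC differed by 0.69 and ALDOA by 0.17. In each of these enzyme pairs the gene with the larger difference was called and the other was not. The difference between 2 genes was not itself tested. By the mean of the controls ENO1 was much brighter than ENO2 (13.84 against 8.43), while ALDOA was dimmer than ALDOC (11.24 against 11.91). The part of brightness in these differences was not tested.

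The PFKFB enzymes make and remove the activator of phosphofructokinase. PFKFB4 had 9.77 on ZFX-SH3 and 8.77 on ZFX-SH1, against 8.46 on SCR and 8.44 on LEN-GFP. This was 2.49-fold the control level on ZFX-SH3 (log2 1.32, SE 0.14, adjusted p = 8.32e-04), and ZFX-SH1 was above both controls by 0.32 without a call (adjusted p = 0.492). PFKFB3, the isoform with the strongest kinase activity, had 11.32 and 10.89, against 11.10 and 10.91. It differed by 0.31 on ZFX-SH3 and did not pass (adjusted p = 0.127).

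Pyruvate dehydrogenase kinases hold pyruvate back from the mitochondrion, and both measured members rose on ZFX-SH3. PDK1 had 11.12 on ZFX-SH3 and 10.08 on ZFX-SH1, against 9.93 on SCR and 10.33 on LEN-GFP. The controls were 0.41 apart and ZFX-SH1 lay between them, while ZFX-SH3 exceeded the mean of the controls by 0.99 (SE 0.17, adjusted p = 0.00638). PDK3, which has the highest activity of the family, had 11.55 on ZFX-SH3 and 10.63 on ZFX-SH1, against 10.87 on SCR and 10.89 on LEN-GFP. The hairpins lay on opposite sides of a close control pair, at 0.67 (SE 0.11, adjusted p = 0.00514) and -0.26.

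**Figure D5:**
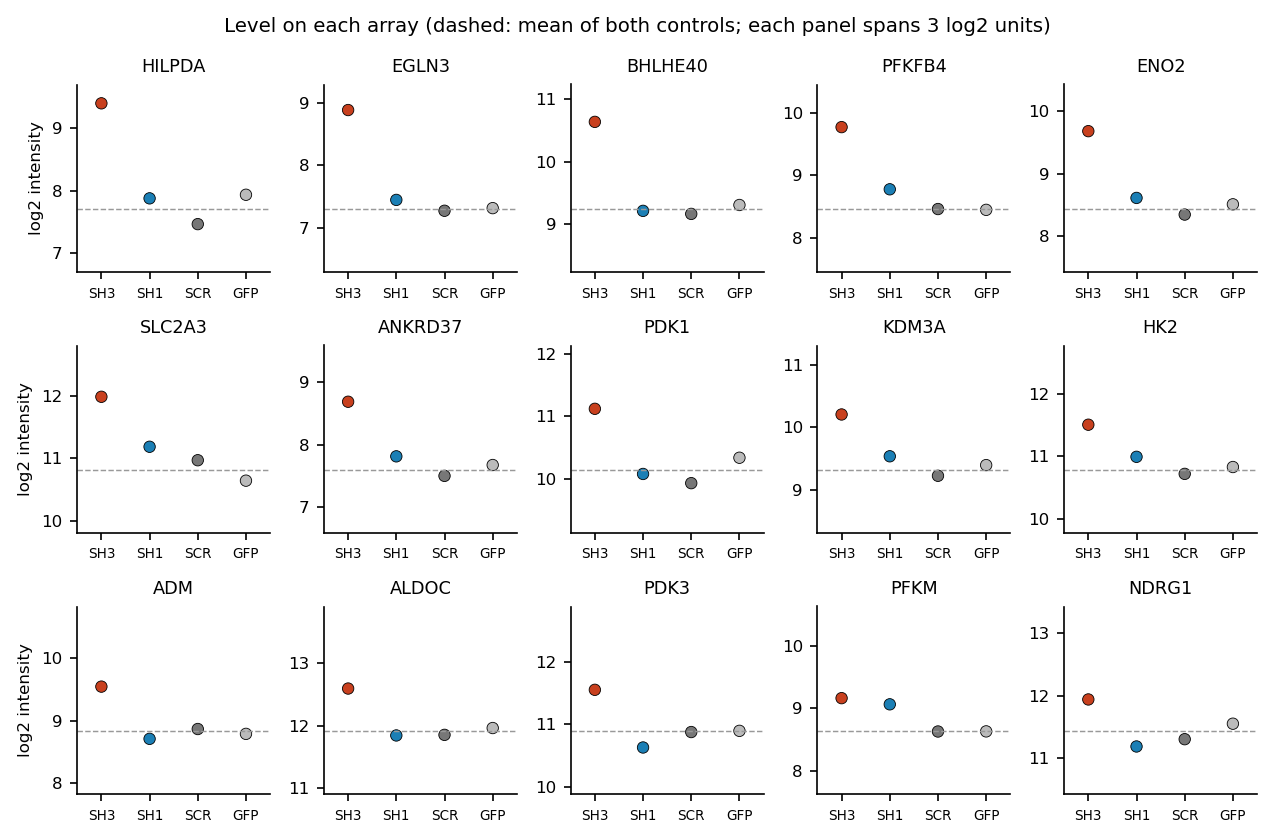
Log2 intensity on each of the 4 arrays for the 15 members with the largest ZFX-SH3 difference among those called, with the mean of both controls dashed and every panel spanning 3 log2 units (SH3 and SH1 are the hairpin arrays, GFP is LEN-GFP). ZFX-SH3 is the highest point in all 15 panels, which largely follows from picking them by this difference. For PFKM the ZFX-SH1 point lies close to that of ZFX-SH3.

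Among 11 measured HIF targets outside glycolysis, 8 were called higher on ZFX-SH3 and 0 lower, where 6.33% and 7.0% of all genes were. All 11 lay above the mean of the controls on ZFX-SH3, with a median of 0.51 there and -0.12 on ZFX-SH1. HILPDA, a lipid droplet protein that restrains triglyceride breakdown, had 9.40 on ZFX-SH3 and 7.88 on ZFX-SH1, against 7.46 on SCR and 7.93 on LEN-GFP. It had the largest difference of all members, 3.25-fold the control level (log2 1.70, SE 0.20, adjusted p = 0.00116), ranking 23 of 12892 genes from the top, although its controls were 0.47 apart. BHLHE40, a repressor that also responds to the circadian clock, had 10.64 and 9.22, against 9.17 and 9.31. It rose 2.64-fold on ZFX-SH3 (log2 1.40, SE 0.14, adjusted p = 6.04e-04) with ZFX-SH1 within the control range. ANKRD37 had 8.69 and 7.81, against 7.50 and 7.67, and rose 2.14-fold on ZFX-SH3 (SE of the log2 difference 0.15, adjusted p = 0.00206).

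KDM3A, a histone demethylase that HIF induces, had 10.20 on ZFX-SH3 and 9.53 on ZFX-SH1, against 9.22 on SCR and 9.39 on LEN-GFP. Both hairpins were above both controls, by 0.90 on ZFX-SH3 (SE 0.14, adjusted p = 0.00470) and by 0.23 on ZFX-SH1, which was not called. ADM, the vasodilator peptide adrenomedullin, had 9.55 on ZFX-SH3 and 8.71 on ZFX-SH1, against 8.87 and 8.79. Here ZFX-SH1 was the lowest array and ZFX-SH3 exceeded the controls by 0.72 (SE 0.14, adjusted p = 0.0119). NDRG1, a stress-responsive gene, differed by 0.51 on ZFX-SH3 (adjusted p = 0.0256) and by -0.24 on ZFX-SH1.

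P4HA1 and P4HA2 are catalytic subunits of the collagen prolyl hydroxylase. P4HA1 had 11.88 on ZFX-SH3 and 11.05 on ZFX-SH1, against 11.26 on SCR and 11.51 on LEN-GFP, and P4HA2 had 8.37 and 7.65, against 8.08 and 8.05. For both genes ZFX-SH3 was the highest and ZFX-SH1 the lowest of the 4 arrays. P4HA1 was called against the controls (0.49, adjusted p = 0.0303) and P4HA2 was not (0.30, adjusted p = 0.206), while both were called between the hairpins, at 0.83 (adjusted p = 0.0101) and 0.71 (adjusted p = 0.0284).

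BNIP3 and BNIP3L are mitophagy receptors. BNIP3L had 12.73 on ZFX-SH3 and 12.44 on ZFX-SH1, against 12.31 and 12.25, above both controls on both hairpins and called on ZFX-SH3 (0.45, SE 0.09, adjusted p = 0.0102). BNIP3 had 10.77 and 10.29, against 10.54 and 10.36, and was not called (0.32, adjusted p = 0.146). VEGFA, the angiogenic growth factor and the best known HIF target, was not called either. Of the 11 HIF targets of this group, it alone did not have its highest value on ZFX-SH3. It had 11.29 on ZFX-SH3 and 10.73 on ZFX-SH1, against 11.01 on SCR and 11.30 on LEN-GFP. ZFX-SH3 lay within the control range (0.13, SE 0.13, adjusted p = 0.635) and ZFX-SH1 lay below it (-0.43, SE 0.13, adjusted p = 0.284).

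Of the oxygen sensors, EGLN3 was called on ZFX-SH3 and the others were not. EGLN3, a hydroxylase that HIF itself induces, had 8.88 on ZFX-SH3 and 7.44 on ZFX-SH1, against 7.27 on SCR and 7.31 on LEN-GFP. The controls were only 0.04 apart, and ZFX-SH3 reached 3.01-fold their level (log2 1.59, SE 0.13, adjusted p = 3.28e-04), the lowest adjusted p of all members. EGLN1, the main hydroxylase of HIF in oxygen, had 9.96 and 9.67, against 9.48 and 9.71, and differed by 0.36 on ZFX-SH3 (adjusted p = 0.155). HIF1AN, the asparagine hydroxylase, differed by 0.09 on ZFX-SH3 and by 0.22 on ZFX-SH1, and neither was called. VHL, which captures hydroxylated HIF for degradation, had 10.16 and 10.28, against 10.17 and 10.27, so that all 4 arrays lay within 0.12 of each other.

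None of the 3 measured HIF subunits was called on either hairpin. Of all genes, 6.33% were called higher and 7.0% lower on ZFX-SH3, and 0.403% in either direction on ZFX-SH1. For 3 genes, none called is close to these shares. With arrays centred on their median, HIF1A was called on ZFX-SH3. HIF1A had 11.91 on ZFX-SH3 and 11.58 on ZFX-SH1, against 11.71 on SCR and 11.40 on LEN-GFP. ZFX-SH3 was the highest array, at 0.36 over the controls (SE 0.13, adjusted p = 0.119), beside a control gap of 0.31. EPAS1, the alpha subunit HIF-2alpha, had 8.19 and 8.09, against 7.99 and 7.85, and did not pass (0.27, adjusted p = 0.287). ARNT, their common partner, had 11.00 on ZFX-SH3 and 11.40 on ZFX-SH1, against 11.29 and 11.27. It was the member with the lowest ZFX-SH3 difference, -0.28 (SE 0.10, adjusted p = 0.116), with ZFX-SH1 on the other side of the controls.

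Other genes of the pathways were taken from lists that were drawn up with earlier results of these arrays known. Of 31 further HIF target genes tested, 6 were called higher on ZFX-SH3 and 0 lower, where 6.33% and 7.0% of all genes were, with a median of 0.22 there and -0.0048 on ZFX-SH1. FLT1, a VEGF receptor, had 7.52 on ZFX-SH3 and 6.63 on ZFX-SH1, against 6.62 on SCR and 6.54 on LEN-GFP, a difference of 0.94 on ZFX-SH3 (adjusted p = 0.00147). INSIG2, which retains sterol regulators in the endoplasmic reticulum, and the glycogen branching enzyme GBE1 differed by 0.68 and 0.70. DDIT4, an inhibitor of mTOR signalling, had 10.17 on ZFX-SH3 and 8.03 on ZFX-SH1, against 8.47 on SCR and 9.38 on LEN-GFP. The controls of DDIT4 were 0.91 apart, and its ZFX-SH3 difference of 1.24 (SE 0.30, adjusted p = 0.0268) stood beside -0.90 on ZFX-SH1.

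Of 31 tested genes of other glycolytic isoforms, pyruvate entry and glycogen, 3 were called higher and 1 lower on ZFX-SH3, where 6.33% and 7.0% of all genes were, and the median was 0.06. The higher genes were GBE1, PFKFB2 (0.67) and the hexokinase HK3 (0.59), and the lower one was SLC2A8, an intracellular hexose transporter, at -0.83 (adjusted p = 0.00701). The pentose phosphate pathway, which branches off after hexokinase, had 6 genes tested, with a median of 0.0020 on ZFX-SH3. In limma 0 were called there, where 6.33% of all genes were called higher and 7.0% lower. An unadjusted p under 0.05 held for 1 of the 6, and for 3386 of all 12892 genes. With 6 genes these counts are close to the shares over all genes. Its largest difference was 0.24 for PGD, a dehydrogenase that makes NADPH (adjusted p = 0.0802), followed by PGLS (-0.16), RPIA (-0.15) and TALDO1 (0.09). Of 15 further regulators of HIF, 0 were called higher and 1 lower, against 6.33% and 7.0% of all genes. The lower one was the chaperone gene HSP90AA1, with 12.15 on ZFX-SH3 and 12.85 on ZFX-SH1, against 12.79 on SCR and 12.56 on LEN-GFP (-0.53, adjusted p = 0.0115). CITED2, which competes with HIF for its coactivator, differed by -0.35 and missed the threshold (adjusted p = 0.0511), and ELOB and EP300 differed by 0.25 and 0.20 without a call.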

How the data were processed

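The labels give RNA of NOMO-1 cells infected with lentivirus, extracted with Trizol, of which 200 ng was labelled with the Ambion WT kit and hybridised to 4 arrays. The deposited table of the authors lists 33297 probe sets, with 1 intensity for each array on a linear scale. Per the submitters' processing notes, Affymetrix Expression Console 1.1 and RMA were used, and how the values became linear is not stated there. Because RMA brings the arrays to nearly the same distribution, a global shift in RNA content cannot be seen. The table has no detection calls.

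The log2 of each intensity was taken without an offset. Of the probe sets 19460 had 1 gene symbol, 1754 several and 12083 none in the platform annotation, and those with 1 symbol covered 18417 genes. The brightest probe set stood for its gene (among the members only TPI1 had more than 1). Genes in the dimmest 30% (mean below 6.70) were dropped.

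Tests were two-sided and used lmFit and eBayes (trend on) of limma 3.58.1, run in R 4.3.3. Benjamini-Hochberg adjustment covered 12892 genes, and the threshold was 0.05. The 2 against 2 fit had 2 residual degrees of freedom. A fit with 3 groups (controls, ZFX-SH1, ZFX-SH3) had 1, from the control pair. To this eBayes added 7.85 prior degrees of freedom, from the control spread of all genes tested. The SE of a gene in that fit thus rests mostly on this common trend and less on its own control gap. Comparisons of each hairpin with the controls share those controls. Alternatives were other filters on dim genes, an offset, the mean of probe sets, centred arrays, eBayes without the trend or robust, ordinary statistics and leaving out each array. Values on each array were due for up to 25 members, those past the threshold in any contrast first and then by the size of the ZFX-SH3 difference, plus HIF1A, EPAS1, ARNT, VHL and EGLN1, and for ZFX. Of each list of other genes the 4 with the largest such difference were named, and values given beyond this were chosen after they were seen. Motifs were searched in RefSeq promoters. The members, lists and tests were chosen with earlier results of these data known. All 4 value columns were used. The arrays' number limits the precision.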

Additional observations from a re-analysis of the deposited data

Results flagged for a closer look

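The effects of the 2 hairpins against the same controls differed for 18 members in limma's own test of ZFX-SH3 minus ZFX-SH1 (adjusted p under 0.05 over all genes tested, 1 array each). All 18 were higher on ZFX-SH3. The difference was 1.52 for HILPDA, 1.44 for EGLN3, 1.42 for BHLHE40, 1.07 for ENO2 and 1.04 for PDK1. It was 1.00 for PFKFB4, 0.92 for PDK3, 0.87 for ANKRD37, 0.84 for ADM, 0.83 for P4HA1, 0.80 for SLC2A3, 0.75 for NDRG1 and 0.75 for ALDOC. The smaller ones were P4HA2 with 0.71, KDM3A with 0.67, SLC2A1 with 0.66, HK2 with 0.51 and GPI with 0.42. The hairpins were not repeated, so hairpin, culture and array cannot be told apart. Groups of 2 arrays are too small for a check on single outlying samples.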

How the results depend on the processing

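No paired analysis was possible because the labels give no replicate numbers that the groups share. Of the 19 members called on ZFX-SH3, 19 kept the call with an offset of 50 before log2, with the mean of a gene's probe sets, with robust eBayes and with arrays centred on their median, where HK1, EGLN1 and HIF1A were added. P4HA1, PFKM and SLC2A1 lost it when dim genes were kept (adjusted p between 0.0538 and 0.0564), and BNIP3L, NDRG1, P4HA1 and SLC2A1 with no intensity trend (0.0575 to 0.0751). EGLN3 and ANKRD37 fell below the filter when the lowest 50% of genes were left out and were not tested there. Between the hairpins, HK2 and GPI lost the call with no filter and with no trend, KDM3A with no filter and GPI with centring, while centring added HK1, PFKFB3, VEGFA and BNIP3 higher and ARNT lower (members lower: 1). On ZFX-SH1, 20 genes of the array were called higher and 32 lower, with 10 and 10 under no filter, 12 higher with the lowest 50% left out, 3 and 1 with no trend, and 195 and 245 with centring, which also called 1 member lower (VEGFA, adjusted p = 0.0409). Between the hairpins the counts over all genes, 517 higher and 578 lower, became 887 and 950 with centring. In the 2 against 2 comparison, leaving out 1 array gave between 0 and 808 genes higher, 0 and 890 lower, and 0 and 19 members higher, and the high counts came without ZFX-SH1. Role medians on ZFX-SH3 ranged, with 1 control left out, from 0.17 to 0.26 for the glycolytic enzymes, from 0.48 to 0.64 for the other HIF targets and from 0.16 to 0.29 for the oxygen sensors (0.0949 with the lowest 50% of genes left out, where the HIF subunits were at 0.0384). On ZFX-SH1 the sensors ranged from 0.0698 to 0.18. The differences of both hairpins from both controls changed sign for 22 of 40 members with an array left out (18 without ZFX-SH3, 3 without ZFX-SH1, 5 without SCR and 3 without LEN-GFP). For the 14 of these among the 28 members named by the rule, the ranges were -0.0226 to 1.40 for BHLHE40, -0.0561 to 0.99 for PDK1, -0.12 to 0.72 for ADM, -0.0641 to 0.69 for ALDOC, -0.26 to 0.67 for PDK3, -0.24 to 0.51 for NDRG1, -0.33 to 0.49 for P4HA1, -0.25 to 0.41 for SLC2A1, -0.41 to 0.30 for P4HA2, -0.34 to 0.0813 for GPI, -0.0232 to 0.44 for HK1, -0.16 to 0.32 for BNIP3, -0.28 to 0.12 for ARNT and -0.0602 to 0.0545 for VHL, which was also at 0.0047 with centring. Beyond the settings' own construction the cause of these moves was not tested.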
